A study of Mus musculus with 6 samples.

Results

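The 9 genes described here encode transcription factors that mark retinal glia or take part in their regeneration in other vertebrates: the SOX factors Sox2, Sox8 and Sox9, the LIM-homeodomain factor Lhx2, the Notch-responsive repressors Hes1 and Hes5, and the nuclear factor I genes Nfia, Nfib and Nfix. They were taken as a list by symbol, 9 of the 32285 genes in the count tables. For each cell type and each state of the Muller glia, their unique molecular identifiers (UMIs, 1 per captured transcript molecule) were added up within a library.

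The study sequenced nuclear RNA of whole retinas from rd10 mice (B6.CXB1-Pde6b-rd10/J), which carry a mutation in the rod phosphodiesterase gene Pde6b and lose their photoreceptors early in life. All mice of both groups carried this mutation, and no wild-type or uninjected retina was sequenced. One group received an intravitreal injection of 20 ng recombinant IL-27 on postnatal day 18 and the other received saline, and retinas were taken on postnatal day 20 and frozen before nuclei were isolated. Each group holds 3 libraries. The saline replicates are called 1, 2 and 6 in the labels, and those given IL-27 are 4, 5 and 10. The labels do not say that each library is a separate animal, so p-values measure the spread between these libraries.

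The libraries held 8968 to 9965 barcodes and 36678332 to 48260748 UMIs each, and 52233 nuclei were retained (26145 saline, 26088 IL-27). Between 15 and 27 barcodes were shared by any pair of libraries. In the clustering of all nuclei, a cluster of 687 nuclei with 11 of 13 ciliary markers stood apart from the Muller cluster of 4768. The ciliary list included Fbln1, Frmpd4, Reln and Csmd3. The paper reported these genes for a saline-specific subpopulation in these data that it classed as Muller glia. Finding them here is therefore no independent evidence for the ciliary name. Both clusters were pooled, are together called Muller nuclei here, and were clustered again. The resulting clusters were named from fixed marker lists. They included a reactive state (9 of 13 markers) and a state named after Adamts17, Syt10 and Hormad2 (3 of 6). A further state was named after Tbx5, Efnb2 and Brinp1 (5 of 6). Also named were a small interferon state and nuclei with markers of the ciliary body or margin, called ciliary-like. The ciliary-like nuclei were unevenly spread, at 19.9%, 21.8% and 11.2% of Muller nuclei in saline against 1.64%, 0.73% and 12.3% in IL-27. IL-27 replicate 10 also stood apart with 34 nuclei of the Adamts17 state, against 145 to 350 in the other libraries. Muller values are therefore given with and without the ciliary-like nuclei. Levels are given as CPM, a gene's UMIs scaled to a common total for the summed nuclei, listed for saline replicates 1, 2 and 6 and then IL-27 replicates 4, 5 and 10. CPM is not corrected for gene length, so levels are compared between populations and not between genes.

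Muller glia span the retina and support its neurons. SOX2 and SOX9 are kept from retinal progenitors into adult Muller glia, LHX2 is needed for glial differentiation and limits reactive gliosis, and HES1 and HES5 are repressors switched on by Notch receptors through the DNA-binding partner RBPJ. NFIA, NFIB and NFIX bind DNA as dimers, drive the late phase of retinal progenitors and hold Muller glia in a resting state, while fish Muller glia leave that state to regenerate neurons.

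Promoter sequence was taken from RefSeq for 6 of the 9 genes (10 start sites). Hes1, Sox9 and Nfib had no entry in the table. Hes5, Sox2 and Sox8 are shown because their levels separated Muller states or ciliary-like nuclei most clearly among the 6, or, for Sox8, separated saline from IL-27 libraries in Muller glia. Each line gives the 250 bases before the start site on the gene's own strand in GRCm38.p6, with matches to 4 searched motifs in capitals. The windows lie at chr4:154960673-154960922 (plus strand) for Hes5, chr3:34649745-34649994 (plus strand) for Sox2 and chr17:25570687-25570936 (minus strand) for Sox8. The RefSeq start site of Sox2 lies upstream of the gene start given below (chr3:34650405), so the Sox2 window does not adjoin the gene as placed there.
Hes5: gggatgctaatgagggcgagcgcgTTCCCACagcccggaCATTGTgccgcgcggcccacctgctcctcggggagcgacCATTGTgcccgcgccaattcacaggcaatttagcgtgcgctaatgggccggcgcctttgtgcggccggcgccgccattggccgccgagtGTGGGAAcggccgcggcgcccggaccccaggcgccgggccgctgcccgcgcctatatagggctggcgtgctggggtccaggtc
Sox2: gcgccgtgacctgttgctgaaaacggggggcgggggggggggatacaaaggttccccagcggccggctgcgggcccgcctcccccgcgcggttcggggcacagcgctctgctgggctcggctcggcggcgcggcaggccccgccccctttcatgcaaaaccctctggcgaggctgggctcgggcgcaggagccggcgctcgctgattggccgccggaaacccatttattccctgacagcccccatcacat
Sox8: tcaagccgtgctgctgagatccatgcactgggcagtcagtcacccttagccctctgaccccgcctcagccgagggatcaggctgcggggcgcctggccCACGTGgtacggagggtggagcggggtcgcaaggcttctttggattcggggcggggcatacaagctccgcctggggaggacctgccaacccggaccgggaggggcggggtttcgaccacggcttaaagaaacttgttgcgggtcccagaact

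The motifs were searched on both strands: GTGGGAA (RBPJ), CACGNG (HES type), ACAATG (SOX) and the palindromic nuclear factor I motif. The Hes5 window held 2 RBPJ matches, beginning 226 and 83 bases before the start site, and 2 SOX matches, beginning 211 and 172 bases before it. At least 1 RBPJ match was present in 5.42% of 32851 promoter windows of this length, and 2 or more in 0.161%. The SOX letters were present in 10.7% of windows and at least 2 times in 0.834%. The Sox8 window held 1 HES-type match, 152 bases before the start site, which reads the same on both strands and was counted once, and 23.5% of windows held such a match. The Sox2 window held none of the 4 motifs. Of the other windows, 1 of Nfia and 1 of Nfix held a SOX match, and none of the 10 held the nuclear factor I motif, which was present in 12 promoters in all. No match overlapped another, and a match describes letters and not a bound site.

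Across cell types, the means of all 9 genes were higher in the Muller states and astrocytes than in most neurons. The genes differed in which glia held the highest level. These levels are a description without a test, since the types were defined from the same nuclei, although the 9 genes were kept out of the genes used to cluster them. Sox2, at chr3:34650405-34652461 in a single exon (GRCm38, ENSMUSG00000074637), was highest in astrocytes, at 78.7, 86.8, 83.9, 107, 56.2 and 68.7 CPM. Every astrocyte value lay above every value of the next population, the reactive Muller state (23.3 to 40.7 CPM). Astrocytes held 80.2 ± 17.2 CPM (SD, n = 6) and Muller glia without ciliary-like nuclei 26.4 ± 4.23 CPM. Sox2 lies inside Sox2ot, a long noncoding gene on the same strand, and no annotated Sox2ot exon overlaps it, so intronic Sox2ot reads there could not be told from Sox2.

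Sox9 (ENSMUSG00000000567, chr11:112782224-112787760), a factor of glial specification, was also highest in astrocytes at 79.4 ± 24.97 CPM, and higher there than in Muller glia in 6 of 6 libraries. The ranges overlapped, with 56.2 to 124 CPM in astrocytes and 38.2 to 63.4 CPM in the reactive Muller state. Sox8 (ENSMUSG00000024176, chr17:25565892-25570686), a close relative of Sox9, had the opposite order, with 11.5 ± 10.4 CPM in astrocytes against 35.2 ± 7.61 CPM in Muller glia and a lower astrocyte value in 6 of 6 libraries. The astrocyte value rests on 13 UMIs (0 to 6 per library). No Sox8 UMI was found in endothelial nuclei, where 3 UMIs would correspond to 21.5 CPM in IL-27 replicate 5 and 38.2 CPM in saline replicate 2.

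Lhx2 (ENSMUSG00000000247, chr2:38339281-38369733) was higher in Muller states, ciliary-like nuclei and astrocytes than in the averages of the other cell types. Microglia were among the others, at 10.1 ± 6.26 CPM. The ciliary-like nuclei, 4 Muller states and astrocytes had means between 72.5 and 99.3 CPM with overlapping ranges. The next population, rods, had 16.1 ± 3.52 CPM and a highest library of 22.7 CPM, below the lowest astrocyte library. Pericytes had a lower mean, but 1 pericyte library reached 34.1 CPM on 1 UMI, above that astrocyte library. Amacrine nuclei averaged 10.9 CPM, while the amacrine cluster led by Slc17a8, Car3 and Trhde held 71.9 ± 16.1 CPM, close to the astrocyte mean.

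Hes1 (ENSMUSG00000022528, chr16:30064384-30067796) was highest in ciliary-like nuclei, at 758 ± 121 CPM (n = 5), and no library of any other population reached the lowest ciliary-like value of 588 CPM. The Muller states, astrocytes, endothelial nuclei and pericytes followed with means of 84.3 to 262 CPM and overlapping neighbours, and rods had 21.2 ± 6.59 CPM. Hes5 (ENSMUSG00000048001, chr4:154960923-154962371) was low in every population. Its highest level was in the Adamts17 state of Muller glia, at 23.1 ± 5.29 CPM, and rods held 2.78 ± 0.759 CPM.

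The nuclear factor I genes were not restricted to glia. Nfia (ENSMUSG00000028565, chr4:97772734-98118874) had 1828 ± 147 CPM in astrocytes and 1514 ± 77.1 CPM in Muller glia, and was higher in astrocytes in 6 of 6 libraries with overlapping ranges. Pericytes (1117 ± 325 CPM) and endothelial nuclei (1009 ± 243 CPM) did not differ beyond their spread. Nfib (ENSMUSG00000008575, chr4:82290173-82705750) was higher in endothelial nuclei (921 ± 214 CPM) than in pericytes (185 ± 55.2 CPM) in 6 of 6 libraries, with no overlap. In microglia, Nfia was at 334 ± 51.5 CPM. Nfix (ENSMUSG00000001911, chr8:84699876-84800344) had its highest mean in the Adamts17 state at 270 ± 22.3 CPM. The interferon state (268 ± 24.3 CPM) and the reactive state (240 ± 24.0 CPM) overlapped its range. Endothelial nuclei had 68.7 ± 20.1 CPM and microglia 66.6 ± 13.9 CPM. Its neuronal averages ran from 39.3 CPM in amacrine nuclei and 36.4 CPM in rods to 4.39 CPM in ganglion nuclei. Pericytes had 17.5 CPM, which rests on 6 UMIs. The heat map of levels by cell type shows these orders along its rows.

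**Figure D1:**
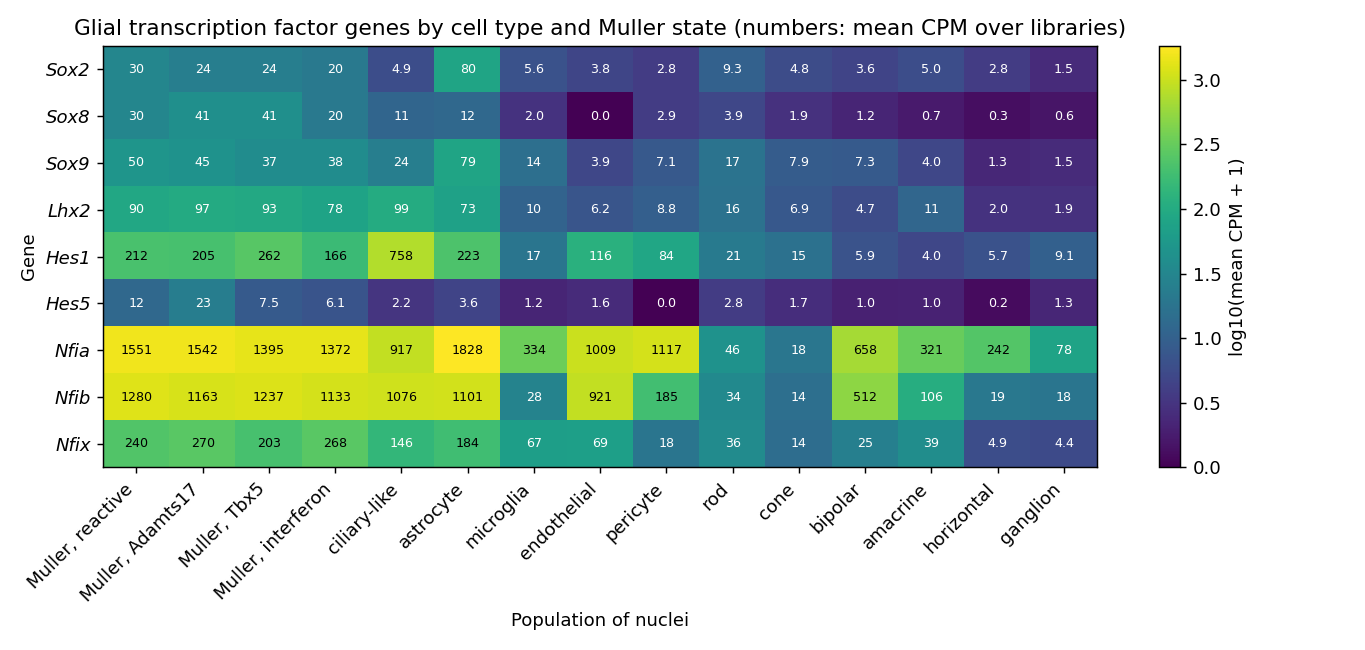
Mean CPM over libraries of each gene (rows) in each cell type and Muller state (columns), colored by log10 of the mean CPM plus 1, with the mean printed in each cell. Read along a row, Hes1 peaks at 758 CPM in ciliary-like nuclei, Sox2 at 80 CPM in astrocytes, and Nfia and Nfib extend into vascular and bipolar nuclei. Rows are not corrected for gene length.

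Ciliary-like nuclei kept Lhx2, held several times more Hes1 and had little Sox2, Sox8 or Hes5. Of the 644 ciliary-like nuclei, 639 came from the cluster that stood apart in the clustering of all nuclei, and after the second clustering they carried 10 of the 13 ciliary markers. Their levels were set against the other Muller nuclei of the same library in the 5 libraries with at least 10 such nuclei. IL-27 replicate 5 had 4 ciliary-like nuclei and was left out, and IL-27 replicate 4 had 12. Hes1 was 888, 800 and 830 CPM in the saline libraries and 588 and 685 CPM in IL-27 replicates 4 and 10, against 175, 236, 226, 180 and 258 CPM in the other Muller nuclei. It was higher in 5 of 5 libraries, by 2.65 to 5.07 times. Summed over libraries, the ratio was 3.85 (95% interval 3.64 to 4.07, which covers counting error only).

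Sox2 was found in 2, 2 and 4 UMIs of the saline ciliary-like nuclei and in 0 and 2 of the IL-27 ones, a summed ratio to other Muller nuclei of 0.174 (0.083 to 0.323). Sox8 had 2, 2, 2, 1 and 5 UMIs and a ratio of 0.146 (0.075 to 0.257). Hes5 had 1, 0, 2, 0 and 1 UMIs and a ratio of 0.119 (0.032 to 0.307). All 3 were lower in ciliary-like nuclei in 5 of 5 libraries, but the UMIs per library were too few to order the libraries, and 3 UMIs would correspond to 3.71 CPM in saline replicate 2 and 73.5 CPM in IL-27 replicate 4. Sox9 was intermediate, with a ratio of 0.488 (0.357 to 0.654), and was lower in 5 of 5 libraries.

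Lhx2 had a ratio of 1.01 (0.869 to 1.16) and no common direction. Nfia (ratio 0.635), Nfix (0.650) and Nfib (0.888) were lower in ciliary-like nuclei in 5 of 5 libraries. The line plot of paired levels shows Hes1 as the one gene that rises from other Muller to ciliary-like nuclei in every library.

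**Figure D2:**
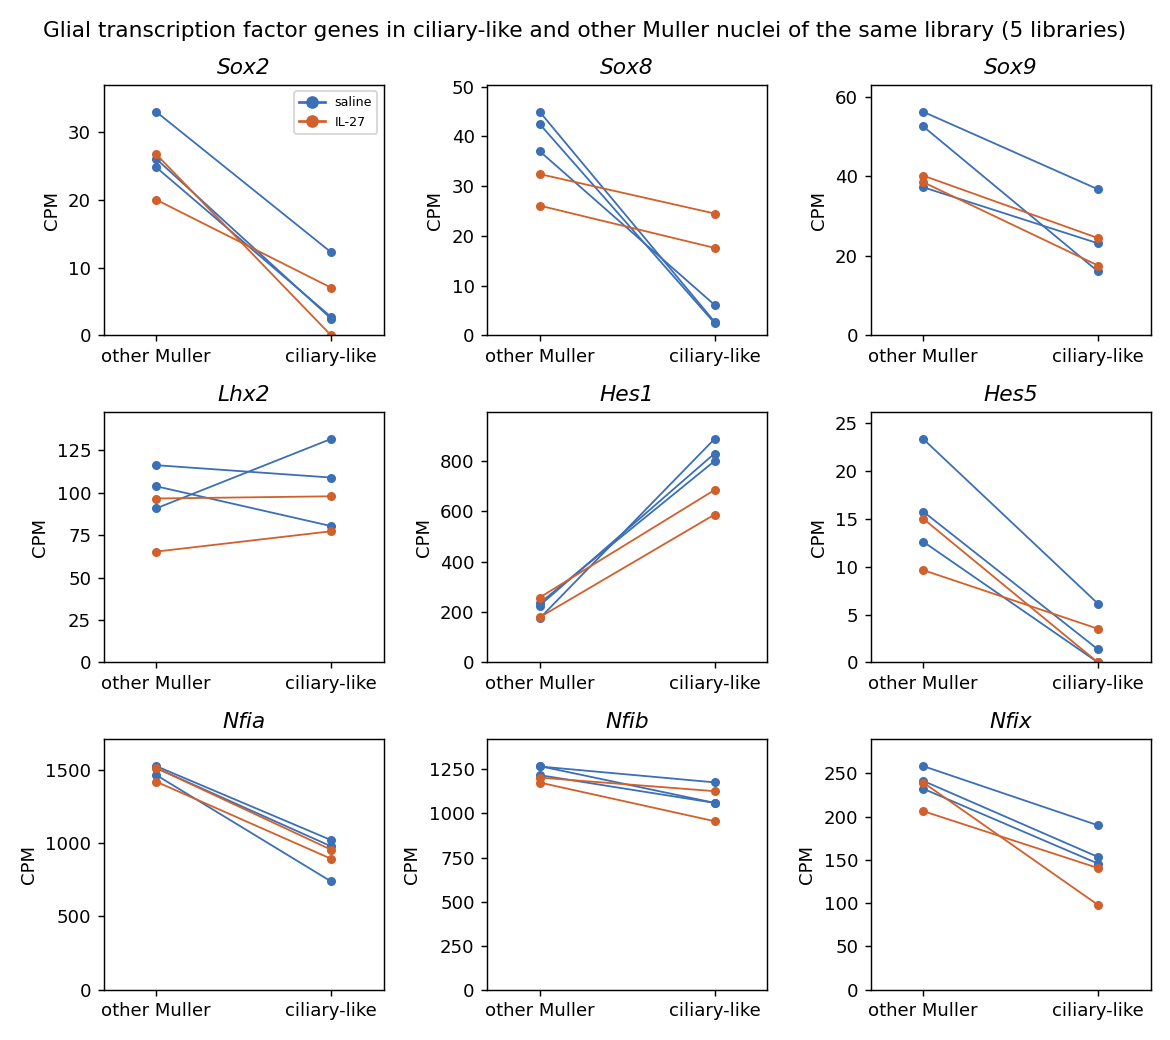
CPM of each gene in the other Muller nuclei and in the ciliary-like nuclei, with 1 line per library (3 saline, 2 IL-27). Hes1 lines rise from between 175 and 258 CPM to between 588 and 888 CPM, Lhx2 lines have no common direction, and the lines of the other 7 genes fall in all 5 libraries.

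Between the Muller states, the differences were smaller and concerned Hes5 and Nfix most. Hes5 was 21.4, 18.8, 33.3, 23.6, 19.4 and 21.9 CPM in the Adamts17 state and 13.1, 9.38, 16.1, 11.5, 9.19 and 9.98 CPM in the reactive state. The ranges did not overlap, and the Adamts17 state was also above the Tbx5 state (0 to 12.2 CPM) in 6 of 6 libraries. When Muller nuclei were divided more finely, an alternative added after the data were seen, the mean was 20.7 CPM in the Adamts17 state against 7.20 CPM in the reactive state and 8.24 CPM in the Tbx5 state. The reactive state then held 719 nuclei, against 2107 before. The Adamts17 state then joined clusters of 1278 and 1003 nuclei, against 1450 nuclei before, and the interferon state held 449 against 123. The states of the finer division are therefore not the same nuclei. In that division saline replicate 1 had 19.4 CPM in the Adamts17 state and 21.3 CPM in the reactive state, so the order did not hold in that library.

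Nfix was 241, 276, 270, 247, 290 and 296 CPM in the Adamts17 state and 171, 211, 230, 209, 220 and 176 CPM in the Tbx5 state, without overlap. The Tbx5 state was also lower than the reactive state in 6 of 6 libraries for Nfix, Nfia (1395 ± 83.4 against 1551 ± 70.2 CPM) and Sox9 (37.1 ± 10.9 against 49.7 ± 10.9 CPM). Hes1 went the other way, at 262 ± 38.9 CPM in the Tbx5 state against 212 ± 28.5 CPM in the reactive state and higher in 6 of 6 libraries. Nfib was lower in the Adamts17 than in the reactive state in 6 of 6 libraries (1163 ± 71.7 against 1280 ± 69.6 CPM). The ranges of these last 4 genes overlapped, as did those of Sox2, Sox8 and Lhx2, which had no direction common to all 6 libraries between the 3 large states.

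In neurons, the bipolar and amacrine averages for Nfia and Nfib combined a small number of clusters with a high level and many under 100 CPM. Bipolar cells relay photoreceptor signals and amacrine cells are the inhibitory interneurons of the inner retina. Over 100 CPM, Nfia was found in 4 of 9 bipolar and 4 of 12 amacrine clusters, and Nfib in 4 of 9 and 1 of 12. The mean of Muller glia without ciliary-like nuclei was exceeded for Nfia by 1 bipolar and 2 amacrine clusters, and for Nfib by 1 bipolar and 0 amacrine clusters. The bipolar cluster led by Slc7a15, Hs3st4 and Cdh9 had 3941, 4147, 4339, 4491, 4178 and 4279 CPM of Nfia. All 6 values lay above every Muller and astrocyte library, while Nfib in the same nuclei was 174 ± 26.4 CPM.

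The bipolar cluster led by Otor, Trpc7 and Tafa3 had the reverse pattern, with Nfib at 3459, 3668, 3697, 3640, 3709 and 3893 CPM and Nfia at 987 ± 22.7 CPM. Among amacrine clusters, the one led by Tll1 and Kcnh1 had Nfia at 1720 ± 87.0 CPM with Nfib at 6.2 CPM. The one led by Spink13 and Esr1 had Nfib at 987 ± 87.0 CPM and Nfix at 325 ± 27 CPM with Nfia at 60.6 CPM. The amacrine names of these clusters rest on 4 of 7 markers (Tll1) and 3 of 7 (Spink13). At resolution 0.5 a cluster of 1082 nuclei, the size of the Tll1 cluster, was named horizontal on 3 of 6 markers. The amacrine name, and the cluster counts above, may therefore depend on the clustering setting. The cluster led by Chat, the acetylcholine-synthesizing enzyme of starburst amacrine cells, had Sox2 at 37.0, 40.4, 42.4, 35.4, 36.0 and 40.9 CPM, above every library of Muller glia without ciliary-like nuclei (20.0 to 33.0 CPM), and the next amacrine cluster had 2.8 CPM. Sox2ot was 2195 ± 214 CPM in the Chat cluster, so how much of this Sox2 signal came from Sox2ot transcripts could not be told apart.

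**Figure D3:**
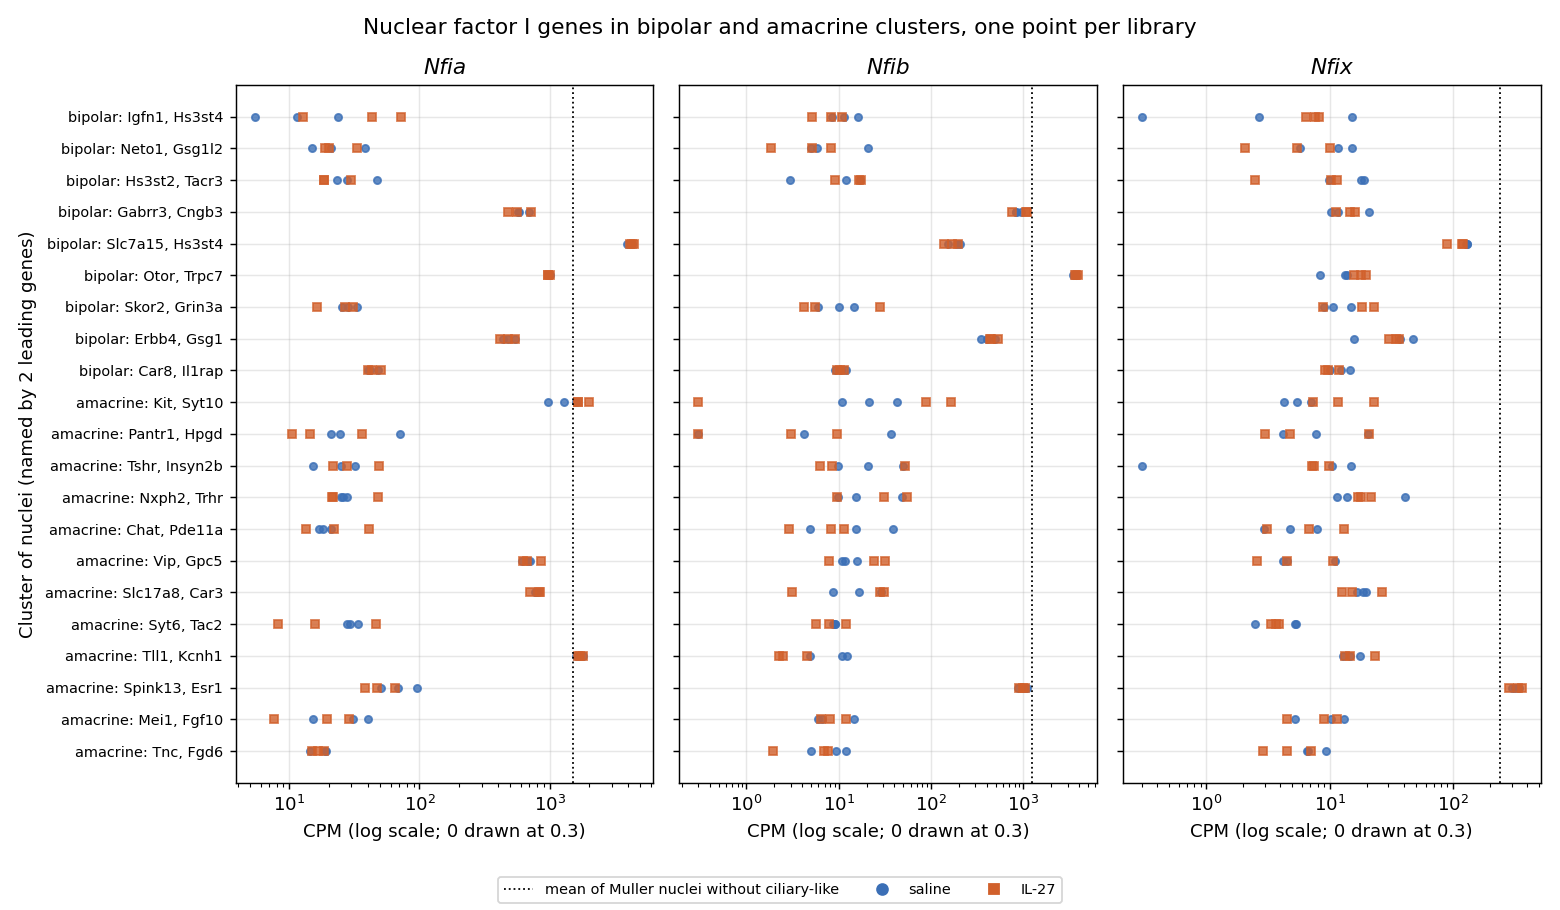
CPM of Nfia, Nfib and Nfix in each bipolar and amacrine cluster on a log axis, with 1 point per library (circles saline, squares IL-27), and a dotted line at the mean of Muller nuclei without ciliary-like nuclei. Nfia exceeds the Muller mean in the Slc7a15 cluster and Nfib in the Otor cluster in all 6 libraries, while most clusters lie below 100 CPM.

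None of the 9 genes differed between IL-27 and saline in Muller glia after adjustment over all genes. In all Muller nuclei, the quasi-likelihood test of edgeR, adjusted by Benjamini-Hochberg, called 0 of the 9 at 0.05, against 0.0936% of the 13889 genes tested. DESeq2 also called 0 (0.662% of genes), and 1 of the 9 had an unadjusted edgeR p under 0.05 (8.99% of genes). Without ciliary-like nuclei edgeR called 0 of 9, against 0.0149% of 13465 genes, DESeq2 called 0 (0.124% of genes), and 2 of the 9 had an unadjusted p under 0.05 (4.95% of genes). The median log2 fold change of the 9 was -0.09 with and -0.14 without ciliary-like nuclei, against 0.00 over all genes tested in each case. In the nuclei without the ciliary-like ones, the 9 Muller markers summed to 6385 to 7460 CPM in saline and 6100 to 6597 CPM in IL-27, the 8 rod markers to 328 to 362 and 193 to 468 CPM, and the 13 ciliary markers to 1751 to 2017 and 1634 to 1900 CPM, with no marker at 0, and their part in the results was not tested. A sum over nuclei cannot tell fewer nuclei that express a gene from less RNA per nucleus.

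Sox8 had the most negative fold change of the 9 when ciliary-like nuclei were left out, while in all Muller nuclei those of Lhx2 (-0.32) and Hes1 (-0.31) were more negative. Without ciliary-like nuclei Sox8 was 44.9, 42.5 and 37.0 CPM in saline and 32.4, 28.3 and 26.1 CPM in IL-27. Every IL-27 library lay below every saline library, which was so for 5.67% of all genes in this comparison, and Sox8 was the only one of the 9 for which it was so. The log2 fold change was -0.51 (95% interval -0.82 to -0.20), and the adjusted p was 0.561 with edgeR. In all Muller nuclei Sox8 was again the 1 gene of 9 without overlap (8.40% of all genes lower without overlap), at 38.3, 34.9 and 34.4 against 32.8, 28.4 and 25.2 CPM, with a log2 fold change of -0.29 (adjusted p = 0.602).

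Sox2 and Sox9 overlapped between the groups. Sox2 was 24.8, 26.0 and 33.0 CPM in saline and 26.7, 28.0 and 20.0 CPM in IL-27 (log2 fold change -0.14, interval -0.52 to 0.24). Sox9 was 37.3, 52.6 and 56.3 CPM in saline and 40.2, 48.8 and 38.6 CPM in IL-27 (log2 fold change -0.18, interval -0.53 to 0.17).

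Lhx2 was 116, 104 and 90.8 CPM in saline and 96.6, 82.5 and 65.4 CPM in IL-27. The groups overlapped through saline replicate 6 and IL-27 replicate 4. The log2 fold change was -0.34 (interval -0.65 to -0.02), with an adjusted p of 0.988 with edgeR, and it was -0.32 with the ciliary-like nuclei included (adjusted p = 0.555).

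Hes1 changed in sign with the nuclei summed. In all Muller nuclei it was 285, 343 and 283 CPM in saline and 183, 245 and 298 CPM in IL-27, with a log2 fold change of -0.31 (interval -0.65 to 0.03, edgeR adjusted p = 0.615). Without ciliary-like nuclei it was 175, 236 and 226 CPM in saline and 180, 244 and 258 CPM in IL-27, with a log2 fold change of 0.10 (interval -0.21 to 0.41). The 2 IL-27 libraries with the lowest share of ciliary-like nuclei were also those with the lowest Hes1 in all Muller nuclei. Without ciliary-like nuclei, IL-27 replicate 4 was also low (180 CPM), near saline replicate 1 (175 CPM). The part of that share in the Hes1 values was not tested. Hes5 was 15.8, 12.6 and 23.3 CPM in saline and 15.01, 12.1 and 9.64 CPM in IL-27, overlapping, with a log2 fold change of -0.46 (interval -0.98 to 0.07).

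The nuclear factor I genes had the narrowest intervals. Nfia was 1512, 1525 and 1464 CPM in saline and 1513, 1649 and 1419 CPM in IL-27, a log2 fold change of 0.03 (interval -0.19 to 0.25). Nfib had a log2 fold change of -0.04 (-0.25 to 0.17) and Nfix of -0.03 (-0.28 to 0.22), and the groups overlapped for both. The plot of values by library and the plot of fold changes show the 9 genes together.

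**Figure D4:**
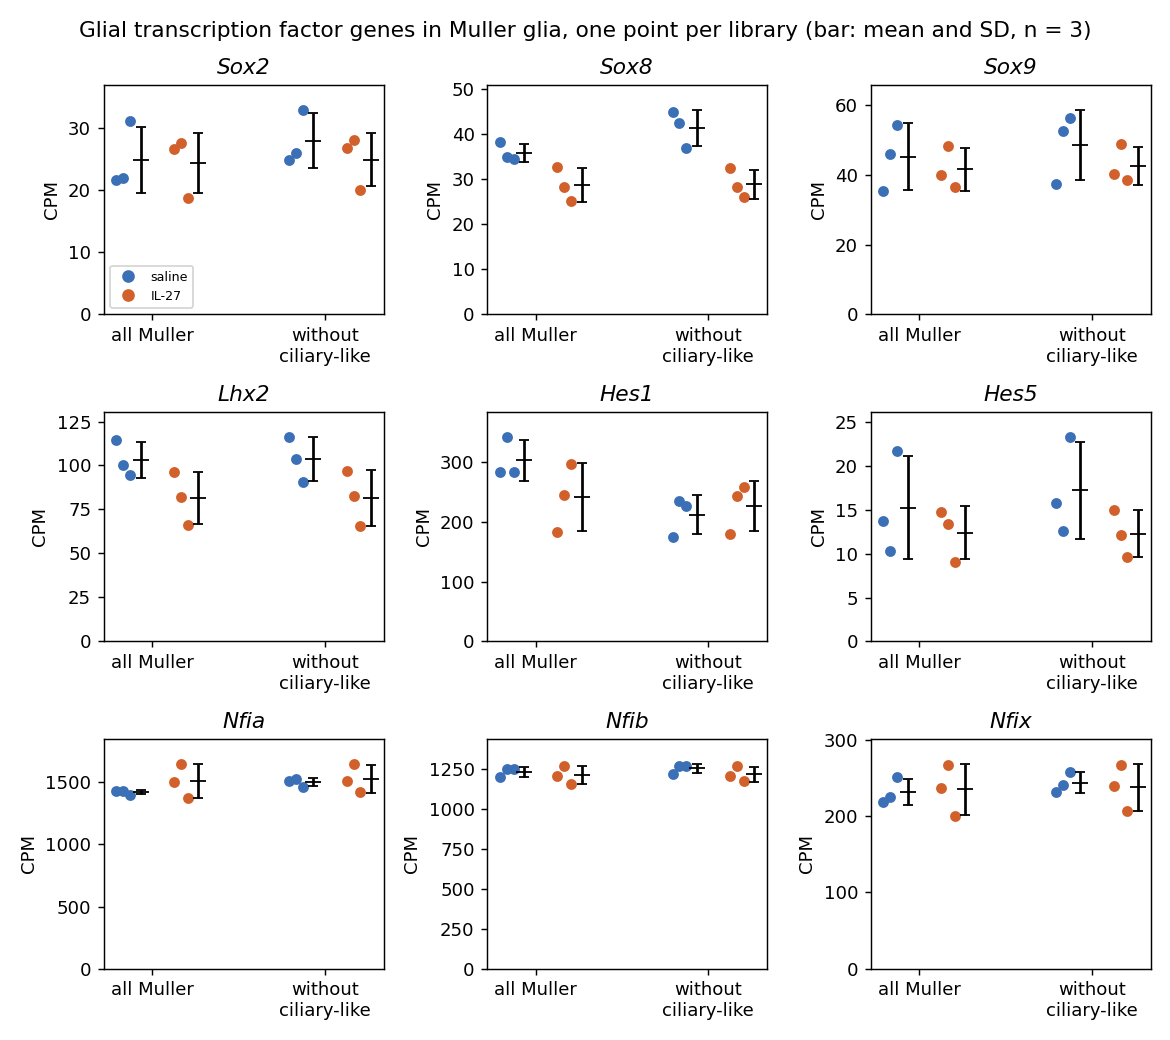
CPM of each gene in all Muller nuclei and in Muller nuclei without ciliary-like nuclei, with 1 point per library (3 saline, 3 IL-27) and the mean and SD beside them. The groups separate for Sox8 only, and Hes1 is lower in IL-27 on average in all Muller nuclei but not without ciliary-like nuclei.

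**Figure D5:**
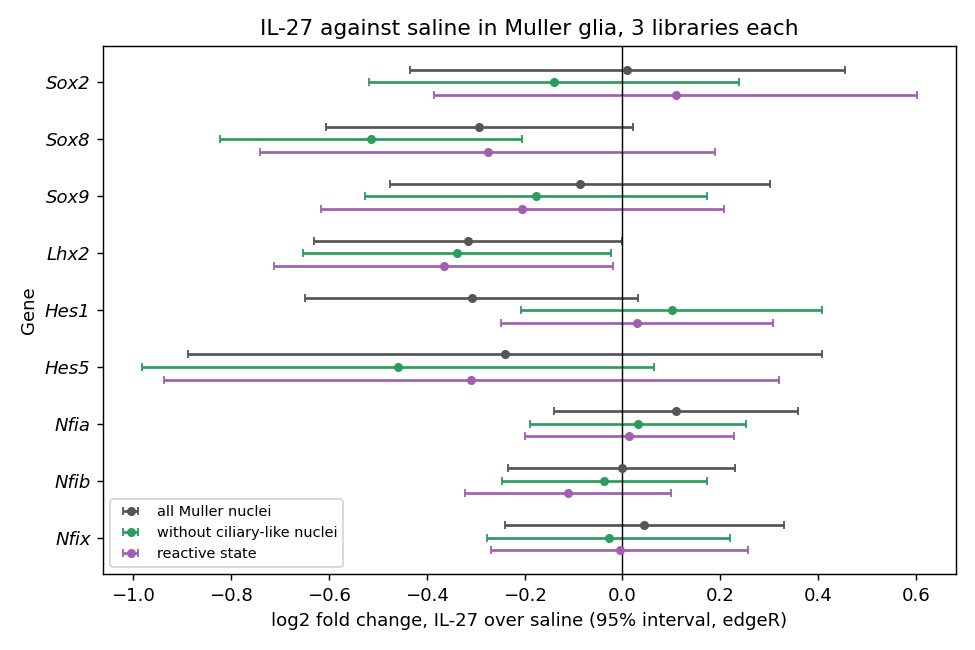
log2 fold change of IL-27 over saline with its 95% interval from edgeR for each gene, in all Muller nuclei, in Muller nuclei without ciliary-like nuclei and in the reactive state. The points lie between -0.51 and 0.11, and no gene passed the adjusted threshold in any of the 3.

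In the Muller states, DESeq2 also called 0 of the 9 genes, against 0.190% of all genes in the Adamts17 state, 0.0915% in the Tbx5 state, 0.00452% in the reactive state and 0% in the interferon state. In the Adamts17 state edgeR called 0 of 9, against 0.201% of genes, and 1 had an unadjusted p under 0.05, against 5.80%. There Sox8 was 50.5, 59.1 and 40.2 CPM in saline and 30.2, 23.6 and 43.9 CPM in IL-27. IL-27 replicate 10, with 34 nuclei in this state, overlapped the saline range. The log2 fold change was -0.73 (SE 0.23, edgeR adjusted p = 0.406), the smallest edgeR adjusted p of any of the 9 genes in any population. In the Tbx5 state (0.0747% of genes called) 0 of the 8 tested were called and 0 had an unadjusted p under 0.05 (6.02% of genes), and Sox8 and Lhx2 were lower in every IL-27 library, as were 6.20% of genes. In the reactive state 0 of 9 and 0% of genes were called, 1 of the 9 had an unadjusted p under 0.05 (4.32% of genes), and Nfib alone was lower without overlap (4.86% of genes). The interferon state was too small in IL-27 replicate 4 (3 nuclei), and 0 of 5 genes tested there without that library were called, with 0 under an unadjusted 0.05 (3.57% of genes) and 0% of genes called.

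In ciliary-like nuclei 5 of the 9 genes had enough counts to be tested, and edgeR and DESeq2 called 0, against 0.0465% and 0.143% of genes. An unadjusted edgeR p under 0.05 was found for 0 of them and for 7.68% of genes. Hes1 and Nfix were lower in both IL-27 libraries than in all 3 saline libraries, as were 17.2% of genes. For Nfix, IL-27 replicate 4 (98.0 CPM) rests on 4 UMIs, where 3 UMIs would correspond to 73.5 CPM. Nfix in IL-27 replicate 10 (141 CPM) lay close to saline replicate 1 (146 CPM). For Hes1 the log2 fold change was -0.43 (edgeR adjusted p = 0.741). Without IL-27 replicate 10 it was -0.88 (adjusted p = 0.034), a value that rests on the 12 nuclei of IL-27 replicate 4, which is assumed to vary like the saline libraries. In these nuclei the 13 ciliary markers summed to 10795 to 11233 CPM in saline, 6171 CPM in IL-27 replicate 4 and 10215 CPM in IL-27 replicate 10, with no marker at 0. The 6 astrocyte markers, with Fgfr3 at 0, summed to 478 to 562 CPM in saline, 122 CPM in IL-27 replicate 4 and 471 CPM in IL-27 replicate 10, and the part of either in the Hes1 values was not tested. A test of whether the IL-27 difference in ciliary-like nuclei departed from that in other Muller nuclei, added after the data were seen, gave -0.63 for Hes1 (SE 0.26, edgeR adjusted p = 0.468) and 3.07 for Sox8 (SE 1.01, adjusted p = 0.161), and the Sox8 value rests on 12 ciliary-like UMIs.

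In astrocytes 6 of the 9 genes could be tested, and edgeR and DESeq2 called 0 (0% of genes with each), with 0 under an unadjusted 0.05 (3.86% of genes) and log2 fold changes from -0.24 for Hes1 to 0.11 for Nfia. In bipolar nuclei edgeR and DESeq2 called 0 (0% and 0.0121% of genes), and 3 of the 7 tested with edgeR had an unadjusted p under 0.05 (3.15% of genes). Lhx2 was 5.34, 5.98 and 7.93 CPM in saline and 2.23, 3.27 and 3.27 CPM in IL-27 there. It was lower in every IL-27 library, as was Nfix, and as were 5.68% of genes, with a log2 fold change of -1.11 (edgeR adjusted p = 0.999). With no filter on low counts the same comparison gave -1.12 and an adjusted p of 0.029. These bipolar levels lie far below the Muller level, and how much of them came from RNA of Muller glia was not tested.

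Over the 17 populations, 100 tests of the 9 genes gave 0 calls with edgeR (0.0322% of all tests), and DESeq2 gave 0 of 147 (0.0542%). With no filter on low counts edgeR called 2 of 151, and the share of all tests called with that setting is not given here. An unadjusted p under 0.05 was found in 9 of the 100, against 4.53% of all 158531 tests. The log2 fold change was negative in 69 of the 100, against 50.1% of all tests, but the populations share nuclei (all Muller nuclei hold the states) and the libraries are the same 6.

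The share of nuclei with a UMI was compared after each nucleus was thinned to 1000 UMIs. In Muller nuclei without ciliary-like nuclei it was 2.52% for Sox2, 3.89% for Sox8, 4.02% for Sox9, 8.51% for Lhx2, 18.3% for Hes1, 1.46% for Hes5, 73.3% for Nfia, 69.5% for Nfib and 21.3% for Nfix. Amacrine nuclei, taken as a background, had 0.421% for Sox2, 0.078% for Sox8, 0.421% for Sox9, 1.04% for Lhx2, 0.489% for Hes1 and 0.157% for Hes5. Median depths before thinning were 4459 UMIs in these Muller nuclei and 5735 UMIs in amacrine nuclei, and the Muller shares without thinning were 11.0% for Sox2, 14.7% for Sox8 and 44.5% for Hes1. The Chat cluster contributes Sox2 to the amacrine share, and the Slc17a8 cluster (71.9 CPM) contributes Lhx2. For these genes the amacrine share is therefore not background alone.

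In ciliary-like nuclei (median 3651 UMIs) Hes1 was found in 41.9% of nuclei, and Sox2 in 0.339% (exact binomial 95% interval 0.041% to 1.22%). The amacrine share of Sox2 lay within this interval. The binomial intervals given here pool the nuclei of all libraries and cover counting error only, not the spread between libraries. Without thinning Hes5 was found in 3 of 590 ciliary-like nuclei (0.508%, exact binomial 95% interval 0.105% to 1.479%) and in 0.607% of amacrine nuclei, and the thinned depth was too low to give it a share in ciliary-like nuclei. For Sox8 in Muller nuclei the saline shares were 4.67%, 4.90% and 4.26% and the IL-27 shares 3.20%, 2.77% and 3.39%. The exact permutation test (two-sided) gave p = 0.1 for Sox8 and for Hes5, the smallest value that 3 against 3 libraries allow.

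Genes of the same pathways were taken from 5 lists. In Muller glia, with and without ciliary-like nuclei, edgeR called 0 of 27 tested Notch pathway genes, 0 of 13 regeneration and proneural genes, 0 of 15 progenitor and Id genes, 0 of 7 relatives of the 9 genes and 0 of 16 homeostatic Muller genes. In all Muller nuclei 4, 2, 1, 1 and 3 of them had an unadjusted p under 0.05, against 8.99% of all genes tested, and without ciliary-like nuclei 2, 0, 0, 0 and 2, against 4.95%. DESeq2 called 1 Notch gene and 1 progenitor gene in all Muller nuclei, against 0.662% of all genes. The medians were 0.04, -0.04, -0.12, 0.03 and 0.08, against 0.00 over all genes.

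The lowest values in all Muller nuclei belonged to genes that ciliary-like nuclei expressed at a high level, and the part of those nuclei in the values was not tested. The Notch ligand Dll1 was 26.5 ± 3.69 CPM in saline and 7.34 ± 5.72 CPM in IL-27 (n = 3 each), a log2 fold change of -1.87 (edgeR adjusted p = 0.187), and -0.84 without ciliary-like nuclei. The cell-cycle regulator Ccnd2 had -1.48 (adjusted p = 0.147) and 0.09 without ciliary-like nuclei. The SOX factor Sox11 had -1.41 (adjusted p = 0.167) and -0.67. The other extremes of the lists in all Muller nuclei were Jag2 (0.58), Hmga1 (0.58), Ccnd3 (0.30), Bhlhe40 (-0.24), Sox5 (0.34), Dapl1 (-0.33) and Crym (0.43).

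Beside the high Hes1, ciliary-like nuclei held Dll1 at 119 CPM against 5.88 CPM in other Muller nuclei, and Jag1, another Notch ligand, at 25.5 against 2.95 CPM. The receptor gene Notch1 was lower, at 30.3 against 150 CPM, as were Lfng, which modifies Notch receptors (2.45 against 28.7 CPM), and the repressor Hey2 (33.1 against 100.01 CPM). Ccnd2 was 84.6 against 5.77 CPM and Sox11 29.7 against 4.17 CPM. Each difference had the same direction in 5 of 5 libraries, and these genes were not kept out of the clustering, so the values are a description.

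The genes with the most similar pattern were found by Pearson's correlation of log2(mean CPM + 1) over 15 cell types and Muller states, among 12968 genes, and are a description over populations that share libraries. For Hes1 they were Col18a1 (r = 0.982), Lama5 and Tcf7l1, for Lhx2 Gldc (0.967), Dkk3 and Itgb8, and for Sox8 Itgb8 (0.961), Rrh and Aldh1l1. For Sox9 they were Mlc1 (0.967), Fxyd1 and Metrn, for Sox2 Gm48597 (0.953), Gm20515 and Trf, and for Hes5 Paqr6 (0.949), Gm973 and Hormad2, a naming marker of the Adamts17 state. For Nfia they were Dock1 (0.957), Lncppara and L3mbtl3, for Nfib Tgfb2 (0.935) and Yap1, and for Nfix Ttc12 (0.944), Gm15726 and Slc1a3, the glial glutamate transporter.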

How the data were processed

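The deposited values were whole UMI counts per gene and barcode, made by the authors with Cell Ranger from single-nucleus libraries and not normalized. The submitters' notes give Cell Ranger 9.0.1 and Seurat 5.2.1, and the matrix headers give Cell Ranger 8.0.1. The genome build was not given in the sources used here, and 32158 of 32285 gene IDs (99.6%) were found in GENCODE M21 (GRCm38), from which gene positions were taken.

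Barcodes with at least 500 UMIs, 200 genes and at most 5% mitochondrial UMIs were kept (56205 of 56634), and 3972 predicted doublets were removed at an expected 8%. Nuclei were clustered in scanpy 1.11.5 with igraph 0.11.9 on 2000 variable genes, 25 components and 20 neighbours at resolution 0.25, and Muller nuclei again on 4000 genes and 10 components. The 9 genes were left out of the variable genes. Clusters were named by at least 3 markers found in 10% of nuclei. A margin of 0.1 between competing names was set after the clusters were seen. Of 35 clusters, 3 stayed unnamed (1593 nuclei), and 150 rod-bipolar and 148 Muller-rod mixed nuclei were set aside. Nuclei whose log2 UMI total lay over 2 scaled median absolute deviations from the median of their type were left out of the sums, and sums of under 10 nuclei were not used.

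Counts were summed per library and population and tested with edgeR 4.0.16 (R 4.3.3, filterByExpr at 10 counts, TMM, quasi-likelihood), adjusted over all genes tested in that population at 0.05, with DESeq2 1.42.0 as an alternative. The study also tested sums per sample. On simulated counts for Muller nuclei without ciliary-like nuclei (13284 genes, 200 changed by a log2 of 1.5) the fit recovered 180 with 7 false calls. Smaller changes, such as those of the 9 genes, were not simulated, so their recovery is not known. Variation particular to a gene was also left out of the simulated counts. Promoter sequences were RefSeq's for GRCm38.p6. The genes and lists were chosen with earlier results of these data known. Named were the 9 genes, list genes past the threshold or highest and lowest in each list, and the 3 genes most like each of the 9, with at least 20 CPM in 1 population and a mean of 1 CPM (1 of these is not reported here). The Notch and other genes compared in ciliary-like nuclei, and the clusters, were named after their values were seen.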

Additional observations from a re-analysis of the deposited data

How the results depend on the processing

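When the results were recomputed under other settings, 811 values kept their direction and side of the threshold, 28 turned sign, 12 moved and 2 passed the threshold. No paired analysis was possible because the labels give saline and IL-27 libraries no shared replicate numbers. Counts of genes called in ciliary-like nuclei rose from 0 to 1 without IL-27 replicate 10, and in bipolar and horizontal nuclei from 0 to 1 each with no filter on low counts. In all Muller nuclei the Notch list went from 0 to 1 call with DESeq2 and 2 with no filter (0 to 2 when 1 library was left out), the regeneration list to 1 with no filter, the progenitor list to 1 with DESeq2 and 1 with no filter (0 to 1 when 1 library was left out), and the relatives to between 0 and 1 when 1 library was left out. In each case the library was IL-27 replicate 10. The shares of all genes called with no filter, or with 1 library left out, are not given here. The counts under those settings therefore have no background beside them. Hes5 in the reactive state went from 11.5 to 7.20 CPM with finer Muller clustering.

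Small fold changes turned sign. In all Muller nuclei Sox2 went from 0.01 to -0.015 with library totals and -0.029 with a mitochondrial limit of 1%. With 1 library left out the ranges were -0.10 to 0.20 for Sox2, -0.25 to 0.070 for Sox9, -0.46 to 0.084 for Hes5, -0.049 to 0.050 for Nfib and -0.070 to 0.16 for Nfix. Without ciliary-like nuclei they were -0.25 to 0.0063 for Sox2, -0.022 to 0.24 for Hes1, -0.043 to 0.10 for Nfia, -0.083 to 0.0062 for Nfib and -0.14 to 0.081 for Nfix. Nfia in cones went from 0.59 to -0.042 with all nuclei kept. In Muller nuclei without ciliary-like nuclei, the IL-27 minus saline share with a UMI turned sign without thinning for Nfia (0.105 percentage points) and Nfib (-0.301). With 1 library left out that difference ranged from -0.00946 to 2.65 for Hes1, -0.428 to 0.852 for Nfib and -1.77 to 0.984 for Nfix. Sox8 stayed negative in Muller nuclei without ciliary-like nuclei, at -0.61 to -0.43 with 1 library left out and an adjusted p of at least 0.139 over its alternatives. The cause of these changes was not tested. Depth limits Sox2, Sox8 and Hes5 in ciliary-like nuclei to 0 to 5 UMIs per library.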
